A study of Homo sapiens with 8 samples.

Results

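The genes described here are the endogenous serotonin receptors, transporters and metabolic enzymes of HEK293 cells, a human embryonic kidney line. They are 10 genes chosen by symbol out of the 58440 genes counted: the receptors HTR1B, HTR1D, HTR2B, HTR6 and HTR7, the transporters SLC22A3 and SLC29A4, and the enzymes MAOA, MAOB and DDC. Stranded polyA libraries were sequenced from cells given serotonin and from cells given no ligand, with 4 libraries for each treatment. Per the labels, the serotonin cells received 1 µM for 1 h, and serum had been withdrawn for 3 h. The labels also describe a line made to overexpress the serotonin receptor HTR1E stably and a control line, with 2 samples per line and treatment. All groups share the HEK293 background and the serum withdrawal. What drives the HTR1E transgene and whether the line is a clone are not given in the sources used here.

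The names of the count columns carry the treatment, a letter A or B and, for 4 libraries, a trailing R. The labels do not say whether the first letter or the R marks the cell line, so the libraries are called by these letters and none is assigned to a line. Where both A libraries of a treatment are given, the one with the trailing R comes second. HTR1E itself was read at 253 and 249 CPM (counts scaled to a common library total) in the serotonin A libraries, and at 202 CPM in each of the no-ligand A libraries. In the libraries with B it was read at 0.255 and 0.399 CPM in serotonin B and BR, and at 0 in no-ligand B and BR. The HTR1E transcript therefore separated the libraries by the first letter, with at most 3 counts in any B library. No test between the letters was run, and the values below are set out for each library.

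Serotonin is made from tryptophan by hydroxylation and then decarboxylation by DDC. Outside the cell it acts on receptors that couple to inhibitory G proteins (HTR1B, HTR1D and HTR1E), to the phospholipase C pathway (HTR2B) or to stimulation of adenylyl cyclase (HTR6 and HTR7). It is cleared by the high-affinity transporter SLC6A4 or, in cells that lack it, by low-affinity carriers such as SLC22A3 (OCT3) and SLC29A4 (PMAT), and is broken down by the monoamine oxidases of the outer mitochondrial membrane.

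Depth ranged from 2604885 to 9072278 counts per library. The no-ligand B library was the shallowest, and 54.4% of its counts fell on mitochondrial genes, 43.9% on the mitochondrial ribosomal RNAs alone. The serotonin BR library had 36.3% mitochondrial counts, and the other 6 libraries had 17.9% to 24.6%. All 8 genes fixed as HEK293 markers, among them KRT8, KRT18 and VIM, were read in every library, and their summed level was 795 to 1027 CPM in the A libraries and 370 to 773 CPM in the B libraries. Of 3 blood genes, PTPRC and HBB were at 0 in all libraries, and the list summed to 0 to 0.491 CPM in the A libraries and 0 to 0.239 CPM in the B libraries. The 2 hepatocyte genes summed to 0.567 to 1.10 CPM in the A and 0.359 to 1.92 CPM in the B libraries, and the 2 muscle genes to 0.331 to 0.992 CPM in the A and 0 to 0.598 CPM in the B libraries. The 5 genes of serotonergic or enterochromaffin cells, of which 2 were read in every library, summed to 3.31 to 8.93 CPM in the A libraries and 4.61 to 18.0 CPM in the B libraries. Intervals on single libraries are exact 95% Poisson intervals and cover counting error only. The labels do not say that libraries of 1 group came from separate cultures, so the p-values measure only the spread between these libraries, which may be technical.

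**Figure D1:**
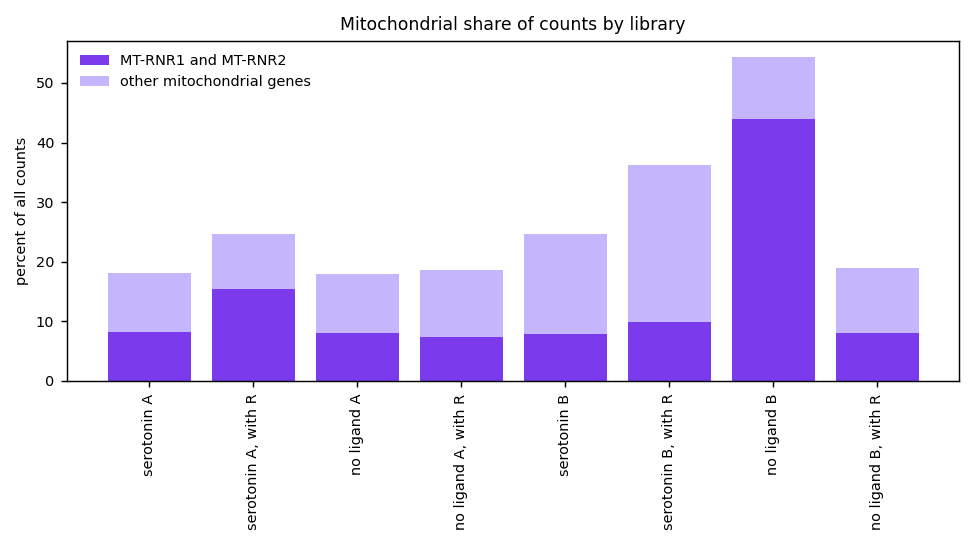
Share of all counts on mitochondrial genes, in percent, for each of the 8 libraries, split into the 2 mitochondrial ribosomal RNAs and the other mitochondrial genes. The no-ligand B library stands highest at 54.4%, followed by serotonin BR at 36.3%.

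SLC29A4 and MAOA had the highest mean levels of the members over the 8 libraries. Their promoters are shown because both levels separated the letters. The sequences are the 250 bases before the RefSeq start on the gene strand (RefSeq, GRCh38.p14). Capitals mark GC boxes, GGGCGG on either strand, none of which overlap here, a motif bound by Sp1-type factors. The SLC29A4 window lies at chr7:5282693-5282942 and the MAOA window at chrX:43656049-43656298, both on the plus strand.
SLC29A4: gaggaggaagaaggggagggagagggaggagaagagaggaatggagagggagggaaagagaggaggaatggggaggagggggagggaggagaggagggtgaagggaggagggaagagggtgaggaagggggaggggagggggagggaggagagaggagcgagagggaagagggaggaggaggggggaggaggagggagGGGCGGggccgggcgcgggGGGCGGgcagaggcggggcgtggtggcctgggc
MAOA: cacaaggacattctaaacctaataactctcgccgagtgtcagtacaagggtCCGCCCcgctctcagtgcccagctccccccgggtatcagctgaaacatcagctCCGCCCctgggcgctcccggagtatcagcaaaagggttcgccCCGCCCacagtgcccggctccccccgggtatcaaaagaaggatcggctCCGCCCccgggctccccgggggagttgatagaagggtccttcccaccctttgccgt

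The SLC29A4 window held 2 GC boxes and the MAOA window held 4. At least 1 GC box was present in 42.6% of the 35116 promoter windows of this length. GC content was 70.4% for SLC29A4 and 63.2% for MAOA, against a median of 58.0% over all windows. Neither window held TGACGTCA, the palindromic cAMP response element, which 1.65% of all windows held, or TATAAA, which 10.7% held, on either strand. No match says only that these letters are not in the window. Of the other members, MAOB had 7 GC boxes, HTR1D had 3, HTR6 and HTR7 had 2 each, HTR1B had 1 and the 2 listed windows of DDC had 0. In the count table, SLC29A4 spans chr7:5274369-5306870 and MAOA chrX:43654907-43746824 (hg38, plus strand), so both RefSeq windows lie inside the counted gene.

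Per length of transcript, SLC29A4 was the most abundant member, at 5.02 ± 2.83 FPKM (fragments per kilobase of exon, scaled like CPM, with SD, n = 8 libraries). MAOA followed at 2.82 ± 2.27 FPKM. The receptors HTR6, HTR1D and HTR7 averaged 1.21 ± 0.598, 0.572 ± 0.113 and 0.470 ± 0.266 FPKM (SD, n = 8). SLC22A3 averaged 0.170 FPKM, and HTR1B, MAOB, HTR2B and DDC were each below 0.1 FPKM on average. SLC29A4 lay above MAOA in 8 of 8 libraries. HTR6 lay above HTR1D in 7 of 8 libraries, and HTR1D above HTR7 in 6 of 8, where the ranges of these neighbours overlapped. In 3 of the 4 B libraries and in 0 of the 4 A libraries, HTR6 lay above MAOA. For comparison, HTR1E stood at 98.2 to 123 FPKM in the 4 A libraries.

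Among the receptors coupled to inhibitory G proteins, HTR1D (chr1:23191895-23194729) was read in every library at a low level. It had 1.84 and 2.02 CPM in the serotonin A libraries, against 2.08 and 1.43 CPM in the no-ligand A libraries. In the B libraries it had 1.40 and 1.46 CPM in serotonin B and BR, against 1.54 and 1.20 CPM in no-ligand B and BR. The treatments overlapped, as did the letters, and each value rests on 4 to 17 counts. HTR1B (chr6:77461753-77463773), the other receptor of this coupling, had 1 count in each serotonin A library, 2 in no-ligand A (without the R), 2 in no-ligand B and 0 in the other 4 libraries.

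The receptors that stimulate adenylyl cyclase were also low. HTR6 (chr1:19665287-19679562) had 1.28 and 4.78 CPM in the serotonin A libraries, against 2.58 and 3.09 CPM in the no-ligand A libraries. It had 1.53 and 1.20 CPM in serotonin B and BR, against 2.69 and 2.03 CPM in no-ligand B and BR. The serotonin A library with the trailing R was the highest of the 8, with an exact 95% interval of 3.12 to 7.0 CPM, and the other 3 serotonin libraries lay below all 4 no-ligand libraries.

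HTR7 (chr10:90740823-90857698) had 1.42 and 1.10 CPM in the serotonin A libraries, against 1.23 and 0.551 CPM in the no-ligand A libraries. It had 2.17 and 0.665 CPM in serotonin B and BR, against 1.54 and 3.11 CPM in no-ligand B and BR. Both treatments covered most of the same range. The pseudogene HTR7P1 had more counts than HTR7 in 8 of 8 libraries, and the counting command sets no option for reads that match several places, so reads common to both copies are a source of error in the HTR7 values. HTR2B (chr2:231108230-231125118), the receptor of the phospholipase C pathway, had 2 counts in serotonin B, 3 in each no-ligand A library, and 0 in the other 5 libraries. A count of 0 allows up to 0.331 to 1.15 CPM, depending on the depth of the library.

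**Figure D2:**
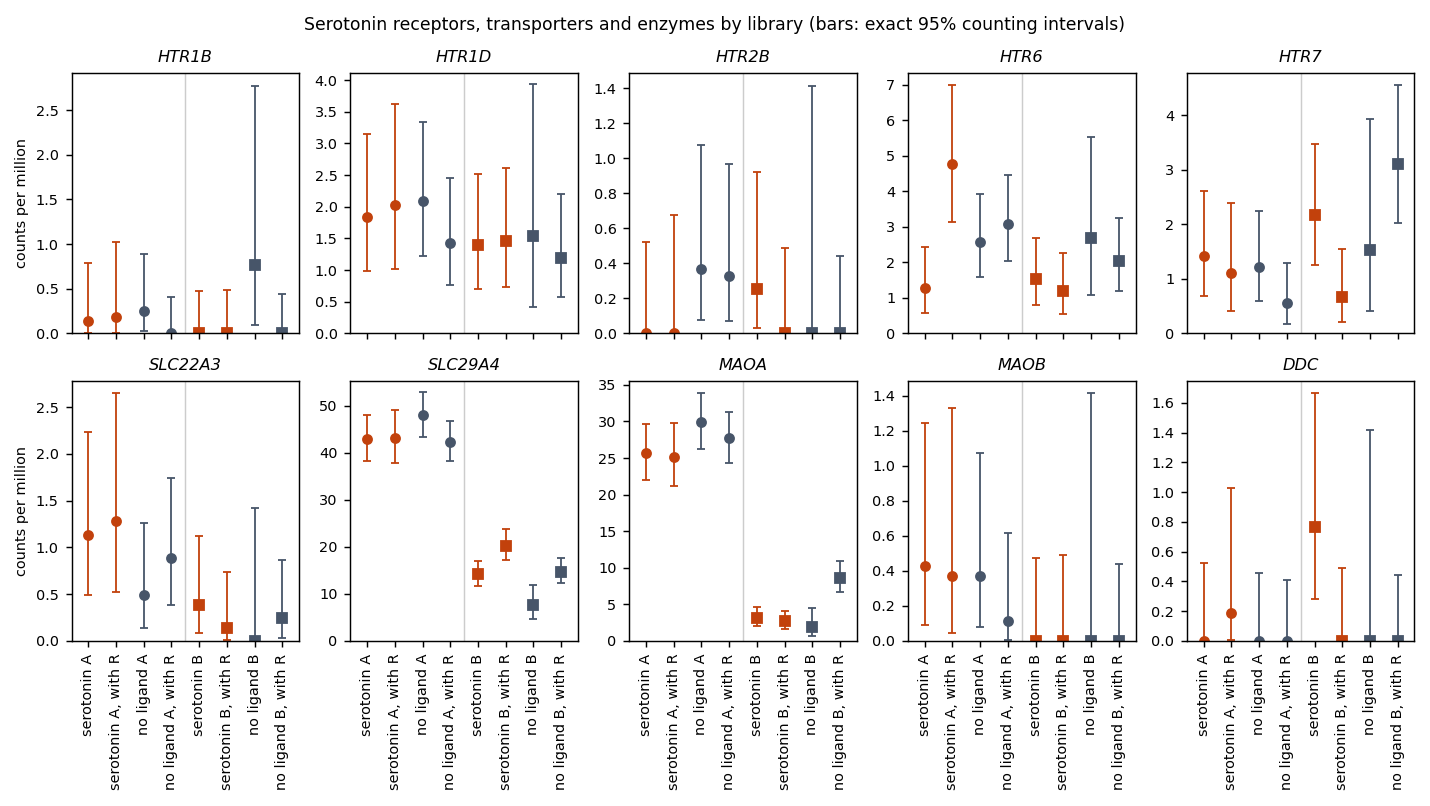
Level of each of the 10 genes in CPM (y axes start at 0 and differ between panels) in each library, with exact 95% counting intervals. Circles are A and squares are B libraries, orange is serotonin and grey is no ligand. SLC29A4 and MAOA stand apart between the letters, and the 5 receptors stay at or below 4.78 CPM.

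SLC29A4, the plasma membrane monoamine transporter, was read at 42.9 and 43.2 CPM in the serotonin A libraries, against 47.9 and 42.3 CPM in the no-ligand A libraries. In the B libraries it was read at 14.2 and 20.2 CPM in serotonin B and BR, against 7.68 and 14.7 CPM in no-ligand B and BR. The A libraries lay within a narrow band, and every A library was above every B library. The pseudogenes SLC29A4P1 and SLC29A4P2 had 2 and 4 counts over all libraries, against 1719 for SLC29A4. SLC22A3 (chr6:160348268-160452581), the other low-affinity carrier, had 1.13 and 1.29 CPM in the serotonin A libraries, against 0.491 and 0.882 CPM in the no-ligand A libraries. It had 0.383 and 0.133 CPM in serotonin B and BR, against 0 and 0.239 CPM in no-ligand B and BR. The 4 A values lay above the 4 B values, but no library held more than 8 counts of this gene and the counting intervals overlapped.

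MAOA, the monoamine oxidase that prefers serotonin, was read at 25.7 and 25.2 CPM in the serotonin A libraries, against 29.9 and 27.7 CPM in the no-ligand A libraries. In the B libraries it was read at 3.06 and 2.66 CPM in serotonin B and BR, against 1.92 and 8.61 CPM in no-ligand B and BR. Every A library was above every B library. Within the B libraries, no-ligand BR (exact 95% interval 6.74 to 10.8 CPM) was above the other 3, and no-ligand B rested on 5 counts (0.623 to 4.48 CPM).

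MAOB (chrX:43766611-43882447), which prefers other amines such as phenylethylamine, had 3 and 2 counts in the serotonin A libraries, 3 and 1 in the no-ligand A libraries, and 0 in all 4 B libraries. DDC (chr7:50458436-50565457) had 6 counts in serotonin B, 1 in serotonin A with the trailing R and 0 in the other 6 libraries.

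Of the 5 members with enough counts to be tested, 2 (SLC29A4 and MAOA) were higher in every A library than in every B library, as were 18.2% of the 17144 tested genes, and 0 were lower in every A library, as were 2.07%. The same 2 had an A median at least 2 times the B median, as did 12.4% of tested genes. The ratio of the A median to the B median was 2.98 for SLC29A4 and 9.32 for MAOA. The median log2 ratio of all tested genes was 0.27 in CPM and 0.02 after scaling by trimmed means (TMM). On the TMM scale the ratios were 2.85 and 7.58, and 9.96% of tested genes were higher and 7.62% lower in every A library. SLC29A4 and MAOA were also higher in every A library with TMM scaling and with the nuclear-gene total. Without no-ligand B and serotonin BR, the libraries with the most mitochondrial counts, the ratio was 2.98 for SLC29A4 and 4.57 for MAOA. Over the 6 libraries left, 3 of the 5 tested members (HTR1D, SLC29A4 and MAOA) were higher in every A library, as were 22.7% of tested genes, and 1 (HTR7) was lower, as were 14.6%. The part of library quality in these differences was not tested, and in such bulk libraries fewer cells with a transcript and less transcript per cell cannot be told apart.

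**Figure D3:**
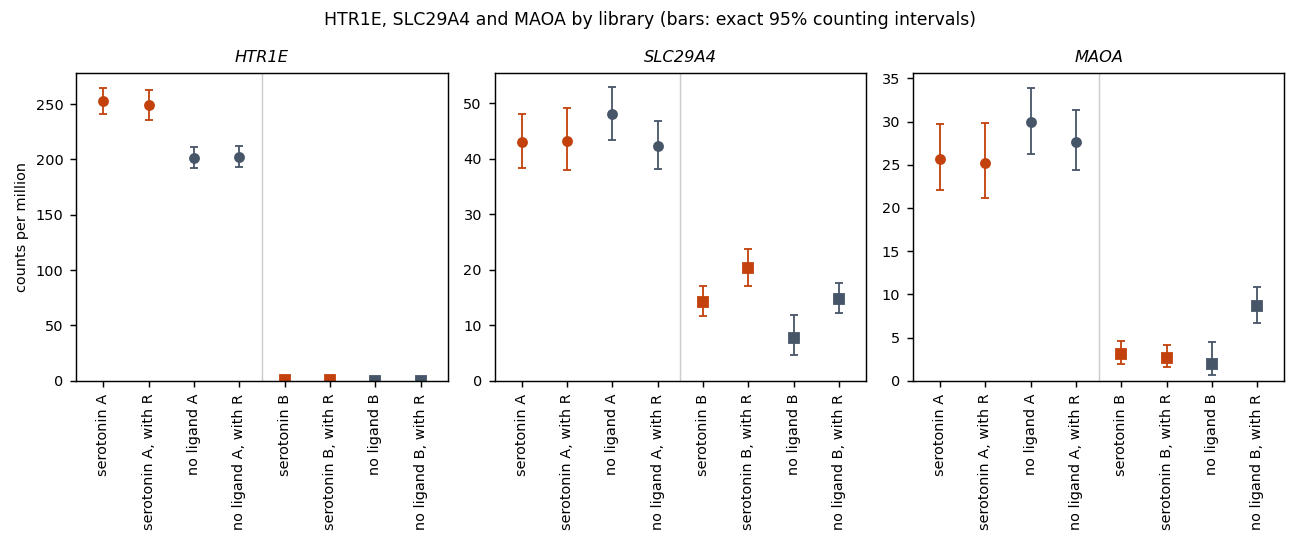
HTR1E, SLC29A4 and MAOA in CPM (y axes start at 0) by library, with exact 95% counting intervals. Circles are A and squares are B libraries, orange is serotonin and grey is no ligand. HTR1E is at 202 CPM or above in the A libraries and at most 0.399 CPM in the B libraries, and no A library overlaps a B library in SLC29A4 or MAOA.

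The genes whose log2 level followed SLC29A4 most closely over the 8 libraries were TBX2 (Pearson r = 0.993), SLC27A1 (r = 0.992) and VTN (r = 0.990). TBX2, a T-box transcription factor, had 47.6 to 54.0 CPM in the A libraries and 15.7 to 29.3 CPM in the B libraries. MAOA and SLC29A4 were related with r = 0.856. SLC27A1, a fatty acid transport protein, had 24.5 to 29.1 CPM in the A libraries and 5.38 to 14.1 CPM in the B libraries. VTN, which encodes vitronectin, had 2.09 to 3.07 CPM in the A libraries and 0 to 0.665 CPM in the B libraries. These are descriptions over libraries in which the levels of all these genes separate by letter and whose depth differs, and no p-value is given.

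No tested member passed the test for a change after 1 h of serotonin. In edgeR's quasi-likelihood test with Benjamini-Hochberg adjustment, averaged over the letters, 0 of the 5 tested members were called at an adjusted p under 0.05, against 0.00583% of all genes tested, which is a single gene. That gene was NR4A1, an immediate early transcription factor, named after its value was seen (log2 fold change 1.68, SE 0.19, adjusted p = 0.0454). An unadjusted p under 0.05 was given to 1910 genes. DESeq2 called 11 of the 17144 genes, none of them a member, but it gave HTR1D and HTR7 no adjusted p and so could not call them. The count of called genes depended on which library was left out, and it included no member in any of these fits. Each such fit leaves 1 library in a group and most called no gene, so the absence of members says little about them.

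For MAOA the mean log2 fold change was -0.58 (SE 0.26, edgeR, unadjusted p = 0.0443, adjusted p = 0.442). The 2 serotonin A libraries were below both no-ligand A libraries, whereas the B libraries overlapped. Without no-ligand BR the mean was -0.01 (adjusted p = 0.986). For SLC29A4 it was 0.28 (95% interval -0.21 to 0.76, adjusted p = 0.609), and 0.01 without serotonin BR or 0.49 without serotonin B. For the receptors the log2 fold changes were 0.14 for HTR1D (95% interval -0.87 to 1.14), -0.35 for HTR6 (-1.44 to 0.74) and -0.15 for HTR7 (-1.27 to 0.97), with edgeR adjusted p-values of 0.916, 0.779 and 0.918. These intervals take in a log2 change of 1 upward for HTR1D and of 1 downward for HTR6 and HTR7. A change of that size and direction could therefore not be excluded for these receptors at this depth. Without the serotonin A library with the trailing R the HTR6 value was -0.97, and without the other serotonin A library it was -0.004. The median over the 5 tested members was -0.15, beside 0.00 over all genes tested.

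Within the A libraries the log2 fold change of MAOA was -0.16 (95% interval -0.87 to 0.54) and that of SLC29A4 was -0.05 (-0.71 to 0.60), both with an edgeR adjusted p of 1. Of all tested genes 0% were called there. Within the B libraries MAOA stood at -0.997 (-1.88 to -0.12, adjusted p = 0.148) and SLC29A4 at 0.60 (-0.12 to 1.33, adjusted p = 0.262). Of all tested genes 0.0117% were called there, and both genes, NR4A1 and NR4A2, rose. Leaving out 1 library gave 0 to 4846 calls, the highest without no-ligand BR, with 1053 without serotonin B and 261 without no-ligand B. The mitochondrial shares of 54.4% in no-ligand B and 36.3% in serotonin BR stand beside these values, and their part in them was not tested. Without no-ligand BR, the MAOA value in the B libraries was 0.15 (adjusted p = 0.890). Without no-ligand B and serotonin BR, the SLC29A4 value in the B libraries was -0.01. It was 0.09 without serotonin BR alone and 1.01 without serotonin B alone.

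The response in the A libraries minus that in the B libraries was 0.83 for MAOA (SE 0.51, edgeR adjusted p = 0.431) and -0.65 for SLC29A4 (SE 0.44, adjusted p = 0.467). It was 0.03 for HTR1D, 0.87 for HTR6 and 1.36 for HTR7, with adjusted p-values of 0.991, 0.670 and 0.501. Of all tested genes 0% were called for this difference by edgeR, with 2564 at an unadjusted p under 0.05, and DESeq2 called 70. Without no-ligand BR edgeR called 3482. HTR1E had a log2 fold change of 0.33 within the A libraries (SE 0.28, adjusted p = 1).

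**Figure D4:**
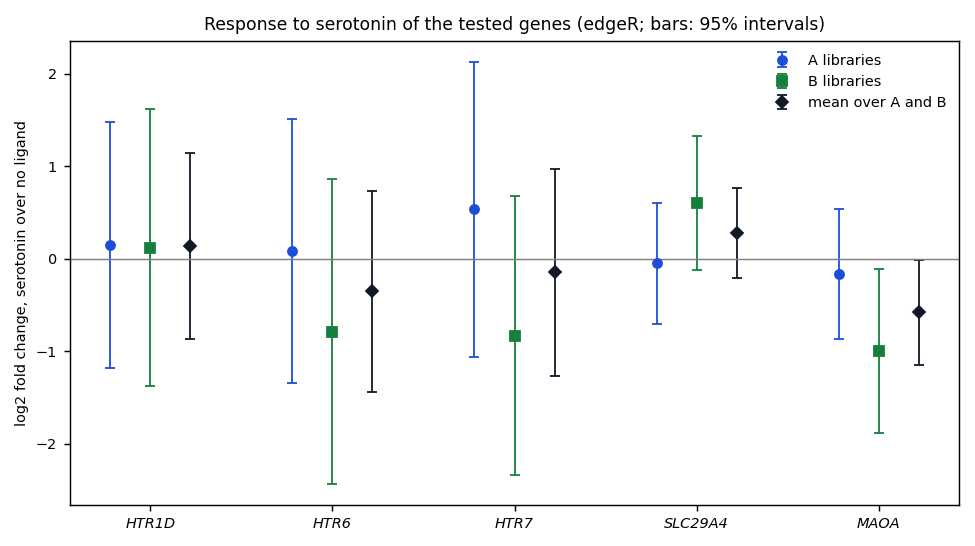
Log2 fold change, serotonin over no ligand, of the 5 tested members within the A libraries, within the B libraries and averaged over both, with 95% intervals from the edgeR fit. The intervals of the receptors are the widest, and only the MAOA intervals for the B libraries and the mean lie below 0, before adjustment over all genes.

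The wider serotonin system was read in part. Of 29 other genes listed for it, 12 reached 1 CPM in at least 1 library, the same number could be tested, and 0 were called in any of the 4 edgeR contrasts. Of all tested genes, 0.00583% were called in the mean, 0.0117% in the B libraries, and 0% in the A libraries and for the difference. The 0 calls therefore say little about this list. Of the 11 other receptors, HTR3A, a subunit of the serotonin-gated ion channel, was the most abundant. It had 3.43 to 4.11 CPM in the A libraries and 0 to 4.72 CPM in the B libraries, with the 0 in no-ligand B. HTR1A, HTR2A, HTR3D, HTR3E and HTR4 had no count in any library. TPH1, the tryptophan hydroxylase of peripheral tissue, had 1.10 to 2.33 CPM in the A libraries and 0.384 to 1.20 CPM in the B libraries. SLC6A4, the high-affinity serotonin transporter, stayed below 1 CPM in every library.

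Genes for the tetrahydrobiopterin cofactor of the hydroxylases were read in every library. GCH1, which starts that synthesis, had 13.6 to 24.7 CPM in the A libraries and 6.52 to 18.8 CPM in the B libraries. Its mean log2 fold change under serotonin was -0.63 (SE 0.21, edgeR unadjusted p = 0.0119, adjusted p = 0.424). That unadjusted p was the lowest among the 12 tested genes of this wider list, so the value is a picked one. PTS had 32.7 to 34.8 CPM in the A libraries and 3.84 to 31.8 CPM in the B libraries. SPR had 12.7 to 18.2 CPM and QDPR 5.53 to 5.95 CPM in the A libraries, against 3.84 to 24.3 CPM and 1.15 to 9.09 CPM in the B libraries. The low ends of the B ranges of PTS, SPR and QDPR were in the shallow no-ligand B library, on 10, 10 and 3 counts.

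ALDH2, the mitochondrial enzyme that oxidizes the aldehyde left by monoamine oxidase, had 30.7 to 43.2 CPM in the A libraries and 5.76 to 21.7 CPM in the B libraries. ALDH2, PTS, SULT1A1 and TGM2 were higher in every A library than in every B library, as were 18.2% of all tested genes. On the TMM scale and with the nuclear-gene total it held for ALDH2 and not for PTS, SULT1A1 or TGM2. ALDH1B1 had 22.8 to 27.2 CPM in the A libraries and 9.31 to 26.9 CPM in the B libraries. AOX1 had 0.425 to 1.47 CPM in the A libraries and 0.359 to 3.07 CPM in the B libraries. SULT1A1, whose reads can be shared with near-identical sulfotransferase genes, had 72.6 to 111 CPM in the A libraries and 13.1 to 71.8 CPM in the B libraries, and TGM2 had 2.55 to 3.56 CPM in the A libraries and 0.665 to 2.15 CPM in the B libraries. The low ends of the B ranges of ALDH2 and SULT1A1 were in no-ligand B.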

How the data were processed

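Read pairs per gene were deposited by the authors as raw counts, 1 column for each of 8 libraries. The counting used featureCounts 2.0.1, per the file headers, reverse-stranded and by pairs, on GENCODE 28 gene models, from alignments with duplicates marked. The submitters' processing notes name cutadapt 3.4, STAR 2.7.8a and SAMtools 1.12 and the build hg38. Gene lengths in bases, deposited beside the counts, were used to compute FPKM. Of 58440 IDs, 57799 matched a symbol.

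Columns were placed by the treatment word in their names. The cell line of a column is not given by its name, and no column was placed by its HTR1E count. The letter in the name was a term of the fit, chosen knowing that HTR1E counts separate by it.

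edgeR 4.0.16 (R 4.3.3) fitted 4 means, treatment by letter, to the 17144 genes kept by filterByExpr, with TMM factors. DESeq2 1.42.0 was an alternative. Adjusted p-values cover all genes tested. Leaving out libraries and other scalings were among the alternatives. The members and lists were chosen with earlier results of these data known. All 10 members and HTR1E are named whatever their values, other listed genes where called or at 1 CPM or more, and the 3 genes most correlated with the most abundant member. One listed gene that meets this rule is not reported here.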

Additional observations from a re-analysis of the deposited data

Results flagged for a closer look

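Among the serotonin libraries, HTR6 stood at 4.78 CPM in the serotonin A library whose name has a trailing R, far from the other 3 serotonin libraries at 1.20 to 1.53 CPM. HTR2B stood at 0.255 CPM in serotonin B, which is 2 counts, with 0 in the other 3 serotonin libraries. Each was flagged because the gap to the nearest other library exceeded Dixon's 95% critical value for 4 values. For HTR2B the other 3 values are 0, so the gap equals the range at any count above 0 and the flag carries no weight. For measured values without such ties, chance flags about 1 in 20 groups, and 20 groups were examined here, many of them with zeros.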

How the results depend on the processing

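Over the 20 member results (5 tested members in 4 contrasts), 304 alternative fits were run and 0 called a member at an adjusted p under 0.05. Many of these fits called no gene at all, among them every fit of the A libraries. The 0 therefore says little about the members in particular. DESeq2 gave no adjusted p for HTR1D or HTR7 in the mean or in the B libraries, and these were counted as not called. The sign turned in 21 of the 304 fits. Leaving out a library in turn gave log2 fold changes from -0.18 to 0.34 for HTR1D, -0.97 to -0.004 for HTR6, -0.55 to 0.16 for HTR7, 0.01 to 0.49 for SLC29A4 and -0.74 to -0.01 for MAOA in the mean over letters. In the A libraries the same range was -0.0855 to 0.41 for HTR1D, -1.16 to 0.77 for HTR6, 0.07 to 1.15 for HTR7, -0.13 to 0.0069 for SLC29A4 and -0.21 to -0.14 for MAOA. In the B libraries it was -0.51 to 0.51 for HTR1D, -1.40 to -0.33 for HTR6, -1.64 to -0.36 for HTR7, 0.09 to 1.01 for SLC29A4 and -1.34 to 0.15 for MAOA. For the A response minus the B response it was -0.34 to 0.65 for HTR1D, -0.37 to 1.55 for HTR6, 0.88 to 2.18 for HTR7, -1.04 to -0.16 for SLC29A4 and -0.32 to 1.20 for MAOA. With no filter beyond 1 count the HTR1D difference was -0.0039. Without no-ligand B and serotonin BR, chosen after seeing the data, HTR7 stood at 0.0327 and SLC29A4 at -0.0321 in the mean, SLC29A4 at -0.0097 in the B libraries and the HTR1D difference at -0.12.

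The number of genes called in the mean, 1, became 0 with column totals only, 11 with DESeq2, 227 with no filter, 0 in the additive model, 0 with treatment only, 7 without no-ligand B and serotonin BR, and 0 to 1650 when a library was left out, the highest without no-ligand BR. With a replicate block, pairing libraries by the rest of the name, it was 0. The names were not taken as pairs in the main fit. Same-named libraries deviated together with r = 0.004 in the A and 0.146 in the B libraries. With 2 libraries for each treatment and letter, these values cannot decide whether the names mark pairs. The 2 calls in the B libraries became 0 with column totals only, 1599 with DESeq2, 1830 with no filter, 9 when fitted alone, 84 without no-ligand B and serotonin BR, and 0 to 4846 when a library was left out, the highest again without no-ligand BR. The 0 calls for the difference became 70 with DESeq2, 570 with no filter, 7 without those libraries and 0 to 3482 when a library was left out. The A libraries gave 0 calls in every alternative run. Genes higher in every A library numbered 3113 in CPM, 1707 on the TMM scale and 1996 with the nuclear-gene total, scalings added after seeing the data. The cause of these shifts was not tested.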
